A study of Caenorhabditis elegans with 20 samples.

Results

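The myosin light chain genes mlc-1, mlc-2, mlc-3, mlc-4 and mlc-5 of the nematode Caenorhabditis elegans were followed across all 20 libraries of the series. They were chosen by name, as 5 of the 18917 gene IDs in the deposited tables (WBGene00003369, WBGene00003370, WBGene00003371, WBGene00003372 and WBGene00011734 in that order), and all 5 were listed in every library. The members were mlc-1, mlc-2 and mlc-3 for muscle and mlc-4 and mlc-5 for cells other than muscle, a division taken from general knowledge of the genes and not from these values.

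TRAP, short for translating ribosome affinity purification, pulls tagged ribosomes of chosen cells out of a lysate of whole animals so that the messenger RNA on them can be sequenced. The strains were JAC127 for muscle, JAC382 for intestine, JAC126 for neurons in general (called neuronal here), JAC433 for serotonin neurons and JAC379 for dopamine neurons. For every strain there were 2 TRAP libraries and, as the measure before purification, 2 input libraries. All groups were L4 larvae kept at 22 °C, with harvest 46 to 48 h after the release of L1 larvae. The transgene and promoter that set which cells were purified, and whether each strain is a single line, are not given in the sources used here. The headers call the replicates biological, and nothing further says how they were separated, so a p-value here covers no more than the spread among these libraries. In the linear model fits of TRAP against input for muscle and for neurons, that spread was set by level over all genes, not by each gene's own replicates.

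A conventional myosin is built of heavy chains, which hold the motor, and of light chains wrapped around the neck of each heavy chain. Every neck carries an essential light chain, also called an alkali light chain, and a regulatory light chain, whose phosphorylation controls the motor in cells outside muscle. In C. elegans, mlc-1 and mlc-2 encode near-identical regulatory light chains of muscle and mlc-3 encodes the alkali light chain of muscle. The product of mlc-4 is the regulatory light chain of non-muscle myosin, needed in cytokinesis and in the elongation of the embryo, and that of mlc-5 is an essential light chain that works with it.

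Levels are given in RPKM, reads scaled to gene length and library size, so levels of different genes can be set side by side. Depth ran from 4.46 M reads (M for mega) for the first neuronal input to 239.7 M for the first dopamine input. No member was thinly covered, since the smallest count of a member in any library was 541 reads, for mlc-5. Markers of the labelled cells were called higher in TRAP for muscle (6 of 12 tested body wall muscle markers, where 1.1% of all genes were), for neurons (8 of 10, where 16.8% were) and for intestine (2 of 11, where 0.406% were). In edgeR 4 muscle markers, 0 neuron markers and 0 intestine markers were called higher, where 2.85%, 0% and 0% of all genes were. After relative log expression rescaling 7, 6 and 0 were, where 2.87%, 10.3% and 0% of all genes were. The dopamine enzyme gene cat-2 stood at 30.5 and 4.57 RPKM in the dopamine TRAP libraries and at 0.503 and 0.486 RPKM in their inputs. Of the 4 dopamine neuron markers 3 were above input, and bas-1, an enzyme shared with serotonin neurons, was below it, at 11.4 and 11.2 RPKM in TRAP and 23.3 and 37.0 RPKM in input. The serotonin enzyme gene tph-1 stood at 67.2 and 7.58 RPKM in the serotonin TRAP libraries and at 3.47 and 0.528 RPKM in their inputs. Of the 5 serotonin neuron markers 3 were above input, and cat-4, which makes the cofactor of the enzyme, was below it, at 91.5 and 49.5 RPKM in TRAP and 303.7 and 129.6 RPKM in input. Limma called 0 markers of either list, and 0% of all genes in either purification. The TRAP replicates of cat-2 and of tph-1 were far apart. In whole-lysate libraries, fewer cells of a type and less RNA per cell cannot be told apart.

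**Figure D1:**
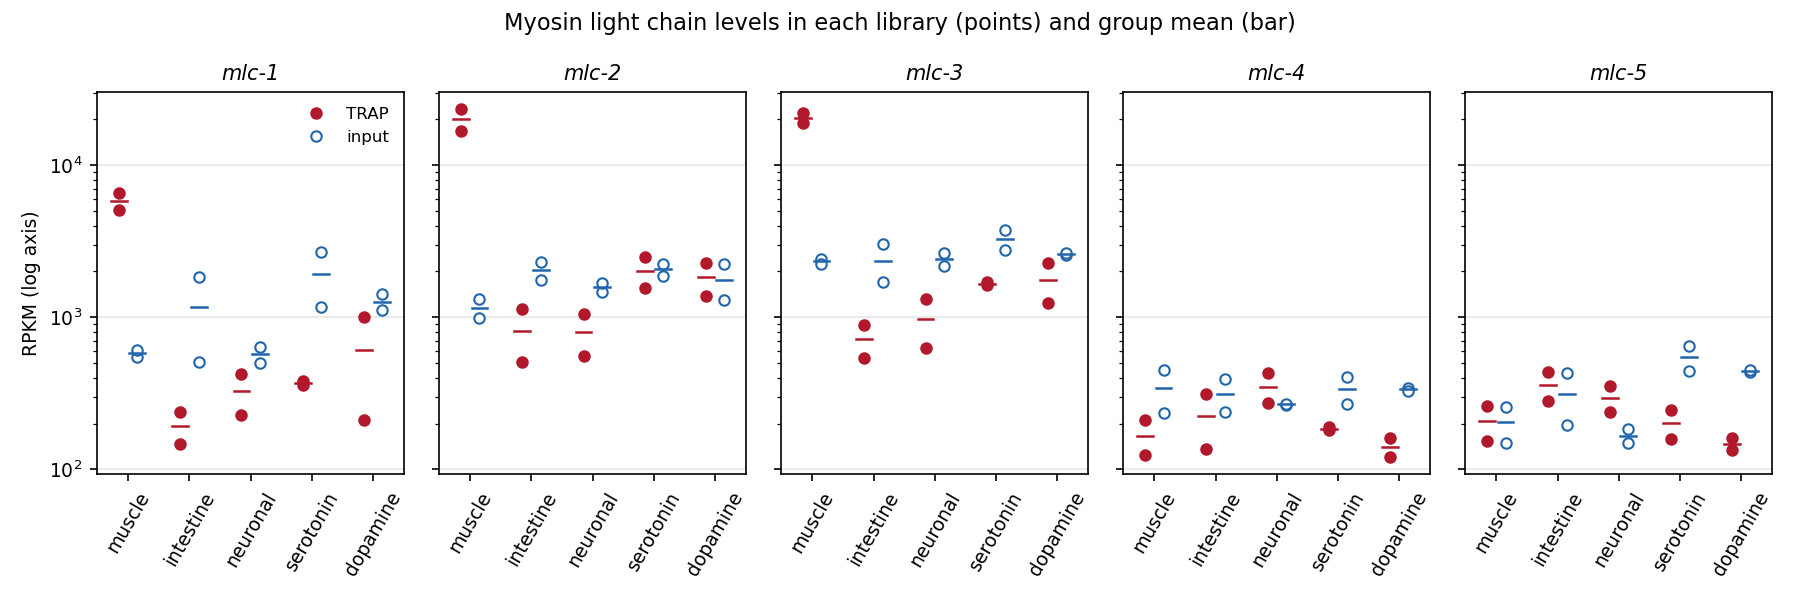
RPKM of each myosin light chain gene on a log axis, by purification, with TRAP libraries as filled points, input libraries as open points and the mean of each pair as a bar. The muscle TRAP libraries hold 5075 to 23300.4 RPKM of mlc-1, mlc-2 and mlc-3, above all other libraries, and 123 to 260.1 RPKM of mlc-4 and mlc-5.

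The muscle purification separated the light chains into those of muscle and those of other cells. The regulatory light chains mlc-1 and mlc-2 and the alkali light chain mlc-3 were 8.80 to 17.3 times as abundant on purified ribosomes as in whole animals by mean RPKM, while mlc-4 and mlc-5 were not called in either direction. In limma, a linear model fitted to log2(RPKM + 1) of all genes with Benjamini-Hochberg adjustment at 0.05, 3 of 5 members were called higher and 0 lower, where 1.1% of the 10048 genes tested were called higher and 0.945% lower. Both TRAP libraries lay above both inputs for 3 members, as for 13.2% of the genes tested, and below both for 1 member, as for 28.6%.

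The regulatory light chain mlc-1 stood at 6557 and 5075 RPKM in the muscle TRAP libraries and at 549.6 and 613 RPKM in their inputs. Both TRAP libraries were high, with no overlap. The change was 3.31 ± 0.52 (log2, SE, n = 2 and 2, adjusted p = 1.46e-07 in limma). Its near copy mlc-2 was at 16761 and 23300.4 RPKM in muscle TRAP and at 1316 and 996 RPKM in input. The gap was wider in replicate 2, at 23.4 times, than in replicate 1, at 12.7 times, and the groups did not overlap. The change was 4.11 ± 0.45 (adjusted p = 6.6e-16 in limma), the highest of the members. The alkali light chain mlc-3 stood at 22168 and 18914 RPKM in TRAP and at 2434 and 2233 RPKM in input. Its replicates were close together, and TRAP exceeded input 9.11 and 8.47 times. The change was 3.13 ± 0.42 (adjusted p = 2.21e-10 in limma). By mean RPKM in muscle TRAP, mlc-3 ranked 3 and mlc-2 ranked 4 among 10197 genes, against 103 and 150 in muscle input, and mlc-1 ranked 59 against 231.

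The non-muscle regulatory light chain mlc-4 stood at 123 and 210.1 RPKM in the muscle TRAP libraries and at 233 and 450.3 RPKM in their inputs. Each TRAP library was at about the same fraction of its own input, 0.529 and 0.467, and the groups did not overlap. The change was -1.0 ± 0.73 (adjusted p = 0.623 in limma), with a 95% interval of -2.44 to 0.43. The non-muscle essential light chain mlc-5 stood at 154 and 260.1 RPKM in TRAP and at 149 and 258 RPKM in input. TRAP and input of each replicate were almost level, at ratios of 1.04 and 1.01, and the groups overlapped. The change was 0.03 ± 0.75 (adjusted p = 0.988 in limma), with a 95% interval of -1.44 to 1.5.

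Over all genes tested, the median log2 change in muscle was -0.56, so relative to that median mlc-1 stood 3.87, mlc-2 4.67, mlc-3 3.70, mlc-4 -0.44 and mlc-5 0.59 on the log2 scale. All 3 calls were lost when RPKM was rescaled between libraries by relative log expression (adjusted p = 0.122 to 0.278) and in edgeR's quasi-likelihood test on recovered reads (adjusted p = 0.222 to 0.304), with changes no smaller than 3.45, where 2.87% and 2.85% of the genes were called higher. They held in DESeq2 (adjusted p = 1.24e-05 to 0.000614) and with the replicate as a block, where 8.82% and 3.26% of the genes were called higher. Without muscle TRAP replicate 1 the call of mlc-1 was lost, at a change of 3.13 (adjusted p = 0.106 in limma).

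**Figure D2:**
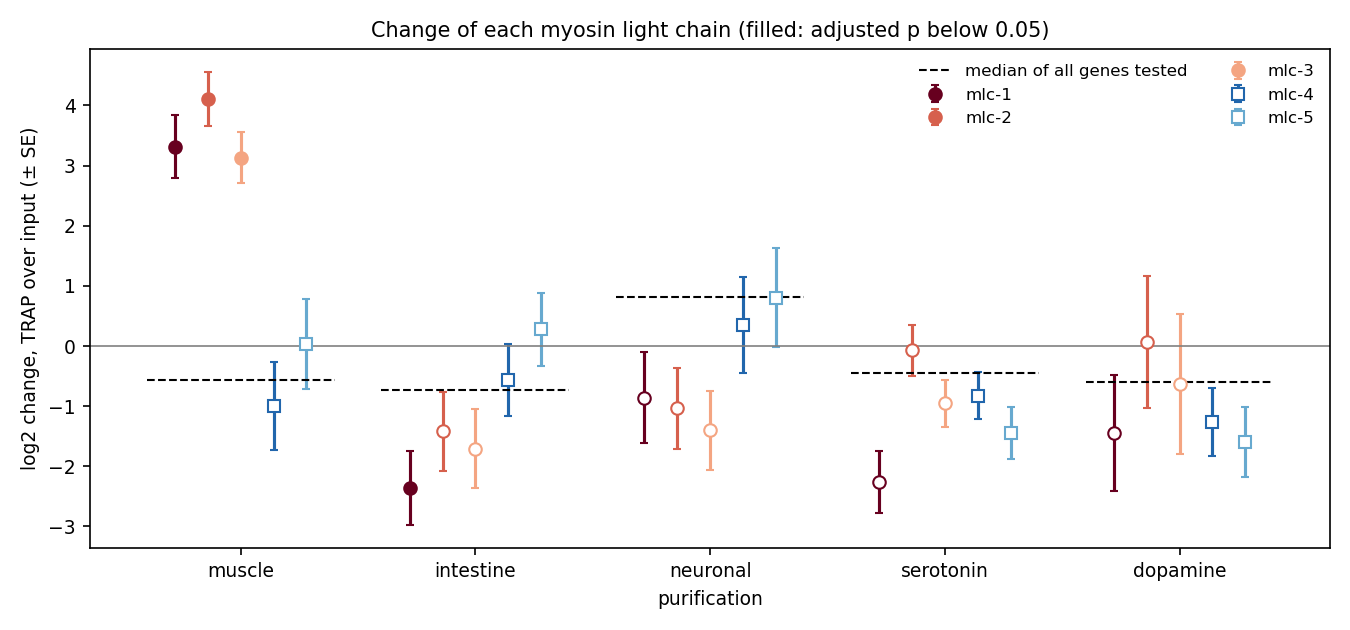
Log2 change of TRAP over input (± SE of the limma fit, n = 2 and 2) for each light chain in each purification, filled where the adjusted p was below 0.05, with the median over all genes tested as a dashed line. The 3 muscle light chains stand between 3.13 and 4.11 in muscle and at or below 0.06 in the other purifications, while mlc-4 and mlc-5 range from -1.59 to 0.81.

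The muscle members differed between purifications, and mlc-4 and mlc-5 were not shown to. Differences of the muscle change from each of the other changes were tested over the 8 libraries concerned. Against intestine, 3 of 5 members were called higher in muscle, where 3.89% of the 10083 genes tested were. The difference was 5.67 ± 0.90 for mlc-1, 5.52 ± 0.79 for mlc-2 and 4.84 ± 0.76 for mlc-3 on the log2 scale (limma adjusted p = 0.00213, 0.00176 and 0.00213). Against serotonin, the same 3 of 5 members were called higher, where 1.81% of the 10091 genes tested were. Those differences were 5.57 ± 0.67 for mlc-1, 4.18 ± 0.56 for mlc-2 and 4.09 ± 0.49 for mlc-3 (limma adjusted p = 0.00846, 0.00961 and 0.00846). After rescaling, mlc-3 lost its call against intestine (adjusted p = 0.0832), and mlc-2 and mlc-3 lost theirs against serotonin (0.0886 and 0.0915), where 4.73% and 3.74% of the genes were called higher. In edgeR, mlc-2 and mlc-3 lost their calls against intestine (adjusted p = 0.0674 and 0.0933) and against serotonin (0.113 and 0.101), where 4.91% and 3.58% were.

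Against neuronal, 2 of 5 members were called higher, mlc-2 by 5.14 ± 0.68 and mlc-3 by 4.54 ± 0.67 (limma adjusted p = 0.0243 and 0.0341), where 0.04% of the 10001 genes tested were. The difference for mlc-1, 4.17 ± 0.73, missed the threshold (adjusted p = 0.0535 in limma), and with the replicate block, where 0.84% of the genes were called higher, and in DESeq2, where 3.17% were, it was called (adjusted p = 5.98e-08 and 9.28e-05). Against dopamine, 1 of 5 members was called higher, mlc-1 by 4.76 ± 1.10 (limma adjusted p = 0.0446), where 1.25% of the 10088 genes tested were. There mlc-2, at 4.04 ± 1.02, was called with the replicate block and not without it (limma adjusted p = 0.0308 and 0.0594), where 8.3% of the genes were with the block. In limma mlc-3, at 3.77 ± 1.01, was called in neither fit (adjusted p = 0.0757 and 0.0782), and in DESeq2 all 3 were called, where 8.65% of the genes were. Without dopamine TRAP replicate 2, all 3 were called against dopamine, and the call of mlc-1 was lost without any of 6 other libraries, namely both muscle TRAP, both muscle input, dopamine TRAP replicate 1 and dopamine input replicate 1 (limma adjusted p = 0.0521 to 0.147). Both calls against neuronal were lost without muscle TRAP replicate 2 (limma adjusted p = 0.0515 for each) and without either neuronal TRAP library (limma adjusted p = 0.102 to 0.390). After rescaling and in edgeR, 0 of 5 members were called against neuronal (where 0.85% and 0% of the genes were called higher) and against dopamine (where 3.32% and 3.19% were), with adjusted p for the 3 muscle members from 0.0834 to 0.250.

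For mlc-4 the difference of the muscle change was -0.44 from intestine, -1.35 from neuronal, -0.18 from serotonin and 0.26 from dopamine, none called. The 95% intervals reached from -3.22, against neuronal, to 2.32, against dopamine. For mlc-5 the differences were -0.24, -0.77, 1.48 and 1.62 in the same order, none called, with 95% intervals from -2.66, against neuronal, to 3.66, against dopamine. By this fit without the replicate block, differences up to these bounds remain possible for mlc-4 and mlc-5. With the block the SEs were smaller, for mlc-4 against intestine 0.62 in place of 0.97, and again none was called.

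In the intestine purification the muscle light chains were below input, and mlc-4 and mlc-5 were close to input in RPKM without rescaling. The median change over all genes tested was -0.74 there. Of 5 members, 0 were called higher and 1 lower, mlc-1, where 0.406% of the 14051 genes tested were called higher and 5.34% lower. Both TRAP libraries lay below both inputs for 3 members, as for 56.5% of the genes tested. With the replicate block, 3 members were called lower, where 20.9% of the genes were.

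In intestine, mlc-1 stood at 238 and 146 RPKM in TRAP and at 505 and 1841 RPKM in input. The inputs were far apart, and both TRAP libraries lay below the lower one. The change was -2.36 ± 0.61 (limma adjusted p = 0.00877), and -1.63 relative to the median of all genes. Its copy mlc-2 was at 1125 and 511 RPKM in intestine TRAP and at 1764 and 2325 RPKM in input. TRAP lay below input in both replicates without overlap, by a change of -1.42 ± 0.66 (limma adjusted p = 0.133, and 0.00348 with the block). The alkali light chain mlc-3 stood at 887 and 542 RPKM in TRAP and at 1697 and 3020.4 RPKM in input. Again no TRAP library reached an input, and the change was -1.70 ± 0.66 (limma adjusted p = 0.0802, and 0.00026 with the block).

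The non-muscle regulatory chain mlc-4 stood at 313 and 136 RPKM in intestine TRAP and at 392 and 238 RPKM in input. The groups overlapped, and the change was -0.56 ± 0.60 (limma adjusted p = 0.513). The essential chain mlc-5 stood at 282 and 439 RPKM in intestine TRAP and at 195 and 432 RPKM in input. TRAP was level with or above input in each replicate, the groups overlapped, and the change was 0.28 ± 0.60 (limma adjusted p = 0.761). Relative to the median of all genes mlc-2 stood at -0.68, mlc-3 at -0.97, mlc-4 at 0.17 and mlc-5 at 1.01. After rescaling, in edgeR and in DESeq2 the change of mlc-5 was 1.11, 1.10 and 1.14, not called. The call of mlc-1 was lost after relative log expression rescaling, in edgeR and in DESeq2 (adjusted p = 0.337, 0.287 and 0.0612), where 0%, 0% and 1.94% of the genes were called lower. It was also lost without intestine TRAP replicate 1, TRAP replicate 2 or input replicate 2, with changes of -2.72, -2.01 and -1.43.

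In the neuronal purification the muscle light chains lay below input and the non-muscle light chains above it, and no member was called. Of 5 members, 0 were called in either direction, where 16.8% of the 13435 genes tested were called higher and 0.588% lower. Both TRAP libraries lay below both inputs for mlc-1, mlc-2 and mlc-3, as for 7.12% of the genes tested, and above both for mlc-4 and mlc-5, as for 43% of them. At an unadjusted p under 0.05, 3416 genes passed, and DESeq2 called mlc-1, mlc-2 and mlc-3 lower (adjusted p = 0.0496, 0.0297 and 0.0139), where it called 7.35% of the genes lower.

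In neuronal TRAP, mlc-1 stood at 229 and 422 RPKM, against 639 and 499 RPKM in input. The higher TRAP library came near the lower input, and the change was -0.86 ± 0.76 (limma adjusted p = 0.581). Neuronal levels of mlc-2 were 553 and 1057 RPKM in TRAP and 1456 and 1687 RPKM in input. Replicate 2 of TRAP was the higher, as for all members, and the change was -1.03 ± 0.68 (limma adjusted p = 0.374). Neuronal levels of mlc-3 were 624 and 1323 RPKM in TRAP and 2647 and 2187 RPKM in input. Its change, -1.40 ± 0.65, was the lowest of the members there (limma adjusted p = 0.137).

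The non-muscle regulatory chain mlc-4 stood at 273 and 427 RPKM in neuronal TRAP and at 266 and 269 RPKM in input. The inputs were almost the same, the lower TRAP library lay just above them, and the change was 0.35 ± 0.79 (limma adjusted p = 0.907). The essential chain mlc-5 stood at 238 and 351 RPKM in neuronal TRAP and at 184 and 148 RPKM in input. Both TRAP libraries were above both inputs, and the change was 0.81 ± 0.83 (limma adjusted p = 0.664). The median over all genes tested was 0.81 there, so relative to it mlc-4 stood at -0.46 and mlc-5 at -0.01. With relative log expression rescaling, which brought that median to -0.09, the changes of both turned negative, to -0.86 for mlc-4 and -0.40 for mlc-5. The difference of the neuronal from the intestine change was called for 0 of 5 members, where 13.4% of the 12396 genes tested were called higher, and it ran from 0.30 for mlc-3 to 1.5 for mlc-1, each turning negative after rescaling.

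In the serotonin purification mlc-1 and mlc-5 were the lowest relative to input, and mlc-2 was level with it. Limma called 0 of 5 members, and 0 of the 14587 genes tested (0%), although 4034 genes passed an unadjusted p of 0.05. With the replicate block, mlc-1 and mlc-5 were called lower, where 29% of the genes were. In DESeq2, mlc-1 was called lower, where 6.27% were. Both TRAP libraries lay below both inputs for 4 members, as for 41.3% of the genes tested.

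In serotonin TRAP, mlc-1 stood at 357 and 380.5 RPKM, against 2669 and 1176 RPKM in input. The TRAP libraries were close together and far below either input. The change was -2.26 ± 0.51 (limma adjusted p = 0.115, and 0.0077 with the block). For mlc-2, serotonin TRAP held 1551 and 2486 RPKM and input held 1879.8 and 2256 RPKM. The inputs lay between the TRAP libraries, and the change was -0.07 ± 0.43 (limma adjusted p = 0.925). For mlc-3, serotonin TRAP held 1629.7 and 1695 RPKM and input held 3734 and 2782 RPKM. TRAP was lower without overlap, with a change of -0.95 ± 0.39 (limma adjusted p = 0.190, and 0.0988 with the block).

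The serotonin levels of mlc-4 were 182 and 189 RPKM in TRAP and 405 and 267 RPKM in input. TRAP was lower in both replicates, with a change of -0.83 ± 0.39 (limma adjusted p = 0.233). The serotonin levels of mlc-5 were 158 and 245 RPKM in TRAP and 445 and 646 RPKM in input. TRAP was at 0.354 and 0.379 of its own input, and the change was -1.44 ± 0.43 (limma adjusted p = 0.130, and 0.0136 with the block).

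In the dopamine purification mlc-1, mlc-3, mlc-4 and mlc-5 lay below input without overlap, and mlc-2 was level with input in each replicate. Limma called 0 of 5 members and 0 of the 14400 genes tested (0%), although 4015 genes passed an unadjusted p of 0.05. With the block, mlc-5 was called lower, where 30.5% of the genes were. Both TRAP libraries lay below both inputs for 4 members, as for 43% of the genes tested. The median change over all genes tested was -0.60. Relative to it mlc-1 stood at -0.85, mlc-2 at 0.66, mlc-3 at -0.03, mlc-4 at -0.67 and mlc-5 at -0.99.

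In dopamine TRAP, mlc-1 stood at 212 and 1001 RPKM, against 1419.6 and 1114 RPKM in input. The replicates differed widely, with TRAP at 0.149 of input in one and 0.899 in the other, and the change was -1.45 ± 0.97 (limma adjusted p = 0.343). For mlc-2, dopamine TRAP held 1387 and 2275 RPKM and input held 1295 and 2227 RPKM. Each TRAP library matched its own input, at ratios of 1.07 and 1.02, with a change of 0.06 ± 1.09 (limma adjusted p = 0.975). For mlc-3, dopamine TRAP held 1241 and 2291 RPKM and input held 2579 and 2656 RPKM. Replicate 1 was the lower of the TRAP libraries, and the change was -0.63 ± 1.16 (limma adjusted p = 0.735).

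The dopamine levels of mlc-4 were 160.4 and 121 RPKM in TRAP and 345 and 327 RPKM in input. Both TRAP libraries were far below the inputs, with a change of -1.26 ± 0.57 (limma adjusted p = 0.189, and 0.0821 with the block). The dopamine levels of mlc-5 were 159.9 and 134 RPKM in TRAP and 434 and 451 RPKM in input. TRAP was lower in both replicates, and the change was -1.59 ± 0.58 (limma adjusted p = 0.133, and 0.0347 with the block).

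Across the 10 groups, the order of levels differed between the muscle and the non-muscle members. For mlc-1, mlc-2 and mlc-3 the muscle TRAP group came first, apart from every other library, and serotonin input came second. The muscle members spanned 44.9, 45.6 and 40.9 times from the lowest to the highest of 10 TRAP libraries, and mlc-4 and mlc-5 spanned 3.54 and 3.29 times. For mlc-4 the neuronal TRAP mean was the highest (350.0 RPKM, SD 109) and the dopamine TRAP mean the lowest (141 RPKM, SD 28.1), and every group overlapped its neighbours in the order. For mlc-5 the order ran from serotonin input (546 RPKM, SD 142) to dopamine TRAP (147 RPKM, SD 18.5), again with each neighbour overlapping. For mlc-1 the neuronal input lay apart from the serotonin, neuronal and intestine TRAP groups below it. Serotonin TRAP lay apart from the neuronal and intestine TRAP groups below it for mlc-3. For mlc-2 the muscle input, intestine TRAP and neuronal TRAP groups came last, apart from the neuronal input above them and overlapping one another in turn.

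The share of the non-muscle chains in the summed light chain RPKM was lowest in the muscle TRAP libraries. In muscle TRAP, mlc-4 and mlc-5 together made up 0.606% and 0.985% of the sum, against 8.15% and 15.6% in muscle input. In intestine TRAP they made up 20.9% and 32.4%, against 12.9% and 8.53% in input. In neuronal TRAP they made up 26.7% and 21.7%, against 8.67% and 8.71% in input. The intestine and neuronal TRAP libraries were thus above all 10 inputs, which ran from 8.15% to 15.6%. In serotonin TRAP the share was 8.75% and 8.67%, and in dopamine TRAP it was 10.1% and 4.37%, within or below the range of the inputs. These shares do not depend on scaling between libraries.

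**Figure D3:**
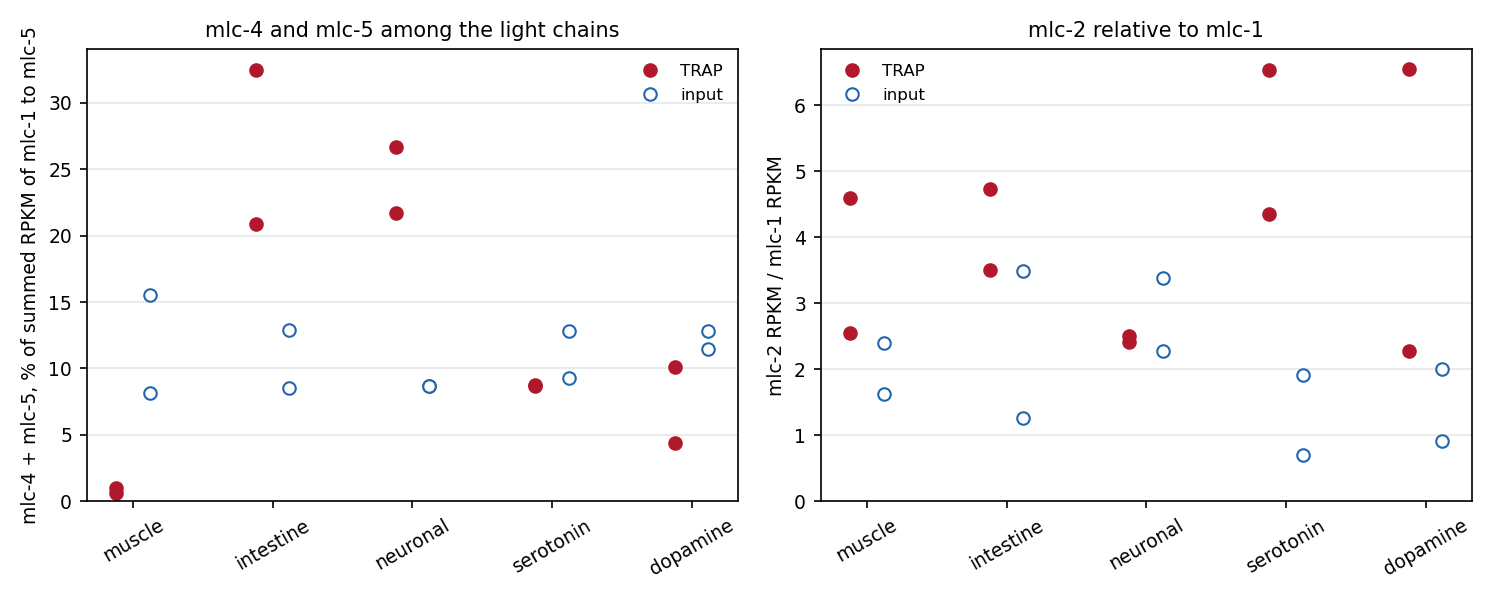
Left, the share of mlc-4 and mlc-5 in the summed RPKM of the 5 light chains, in percent, and right, the RPKM of mlc-2 over that of mlc-1, for each TRAP (filled) and input (open) library. The share is 0.606% and 0.985% in muscle TRAP and 20.9% to 32.4% in the intestine and neuronal TRAP libraries, and the ratio runs from 2.27 to 6.56 in TRAP and from 0.704 to 3.49 in input.

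The balance of the regulatory near copies differed between TRAP and input in value, and no test of it was run. The RPKM of mlc-2 was 2.27 to 6.56 times that of mlc-1 over 10 TRAP libraries (median 3.92) and 0.704 to 3.49 times over 10 inputs (median 1.96). In muscle the ratio was 2.56 and 4.59 in TRAP and 2.40 and 1.62 in input. In serotonin it was 4.35 and 6.53 in TRAP and 0.704 and 1.92 in input. In neurons the ratios overlapped, at 2.42 and 2.51 in TRAP and 2.28 and 3.38 in input, and in the other 4 purifications both TRAP ratios were above both input ratios. The genes lie next to each other with 2 genes between them that do not code for protein in the WBcel235 annotation of RefSeq, and reads that fit both copies may have been counted for either or for neither. The gene length behind the RPKM was 1.83 times as large for mlc-1 as for mlc-2, so the ratio of reads was lower, at 1.24 to 3.58 in TRAP and 0.385 to 1.91 in input.

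The heavy chains that carry these light chains were set beside them in each purification. In muscle, the major body wall heavy chain unc-54 stood at 659 and 1279 RPKM in TRAP and at 63.7 and 186 RPKM in input. It was called higher with its light chains, by 3.06 ± 0.69 (limma adjusted p = 0.00149). It was 1 of 4 muscle heavy chains called higher, against 2 after rescaling and 0 in edgeR. Of all genes 1.1%, 2.87% and 2.85% were called higher in that order. With the block and in DESeq2 2 of the 4 were called higher, where 3.26% and 8.82% of all genes were. The other body wall heavy chain, myo-3, was at 2.82 ± 1.02 (limma adjusted p = 0.159, and 0.00152 with the block). The pharyngeal heavy chains myo-1 and myo-2 were at -0.01 and 0.37, and the non-muscle heavy chains nmy-1 and nmy-2 at 0.89 and 1.37, none called.

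In the neuronal purification unc-54 stood at 438 and 354 RPKM in TRAP and at 119 and 22.4 RPKM in input. It was called higher, by 2.90 ± 0.87 (limma adjusted p = 0.00927), as 1 of 4 muscle heavy chains, where 16.8% of all genes were, while mlc-1, mlc-2 and mlc-3 were below input. After rescaling, in edgeR and in DESeq2, 0 of these 4 heavy chains were called, where 10.3%, 0% and 18.7% of all genes were called higher. In the neuronal libraries the summed RPKM of the 3 muscle light chains over the 4 muscle heavy chains was 3.07 and 7.50 in TRAP and 29 and 153 in input.

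In the serotonin and dopamine purifications all 4 muscle heavy chains and both non-muscle heavy chains stood above 4 in log2 change, while no light chain stood above 0.06. In serotonin TRAP unc-54 stood at 1952 and 1756 RPKM, against 65.0 and 33.8 RPKM in input. The non-muscle heavy chain nmy-2, a partner of mlc-4, stood at 320.2 and 211 RPKM in serotonin TRAP and at 3.93 and 3.13 RPKM in input. The changes ran from 4.34 ± 0.44 for nmy-1 to 5.97 ± 0.45 for myo-3 in serotonin, none called in limma (adjusted p = 0.115 for each) and all 6 with the block (0.000357 to 0.00101), where 9.77% of all genes were called higher. DESeq2 also called all 6, where it called 8.79% of all genes higher, and rescaling and edgeR called 0. The median over all genes tested was -0.44.

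In dopamine TRAP, unc-54 stood at 418 and 33081 RPKM, against 23.3 and 146 RPKM in input. Replicate 2 was far above replicate 1, and both were above the inputs. There nmy-2 stood at 41.8 and 1803 RPKM in TRAP and at 4.11 and 12.6 RPKM in input. The changes ran from 4.67 ± 1.29 for nmy-1 to 5.96 ± 1.84 for unc-54, none called in limma (adjusted p from 0.0895 for myo-2 to 0.124 for myo-3). All 6 were called with the block and in DESeq2, where 8.44% and 8.68% of all genes were called higher, and 0 after rescaling and in edgeR. In the same TRAP library, dopamine replicate 2, mlc-2 stood at 1.02 and mlc-4 at 0.369 times their input.

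The 3 muscle light chains together had 1.38 and 1.93 times the RPKM of the 4 muscle heavy chains in serotonin TRAP, against 112 and 141 times in input. In dopamine TRAP the ratio was 5.66 and 0.143, against 158 and 34.5 in input. In muscle TRAP it was 62.8 and 33.3, against 56.1 and 17.0 in input. For the non-muscle chains the ratio of mlc-4 and mlc-5 to nmy-1 and nmy-2 was 0.566 and 1.09 in serotonin TRAP and 1.68 and 0.0452 in dopamine TRAP. It was 49.6 and 81.9 in serotonin input and 27.7 and 16.4 in dopamine input. By the non-muscle ratio, the 4 libraries from serotonin and dopamine neurons were the lowest of the 10 TRAP libraries. No test of these ratios was run. The summed RPKM of the body wall muscle markers was 2445 and 42732 in dopamine TRAP and 8214 and 7922 in input. That sum includes unc-54 and myo-3, which held 33081 and 4161 RPKM of it in TRAP replicate 2. Without these heavy chains, the sum was below input in both replicates. With the block 6 of 14 markers, unc-54 and myo-3 among them, were called higher and 1 lower. Over all genes 8.44% were called higher and 30.5% lower with the block. The part of muscle RNA in these values was not tested.

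**Figure D4:**
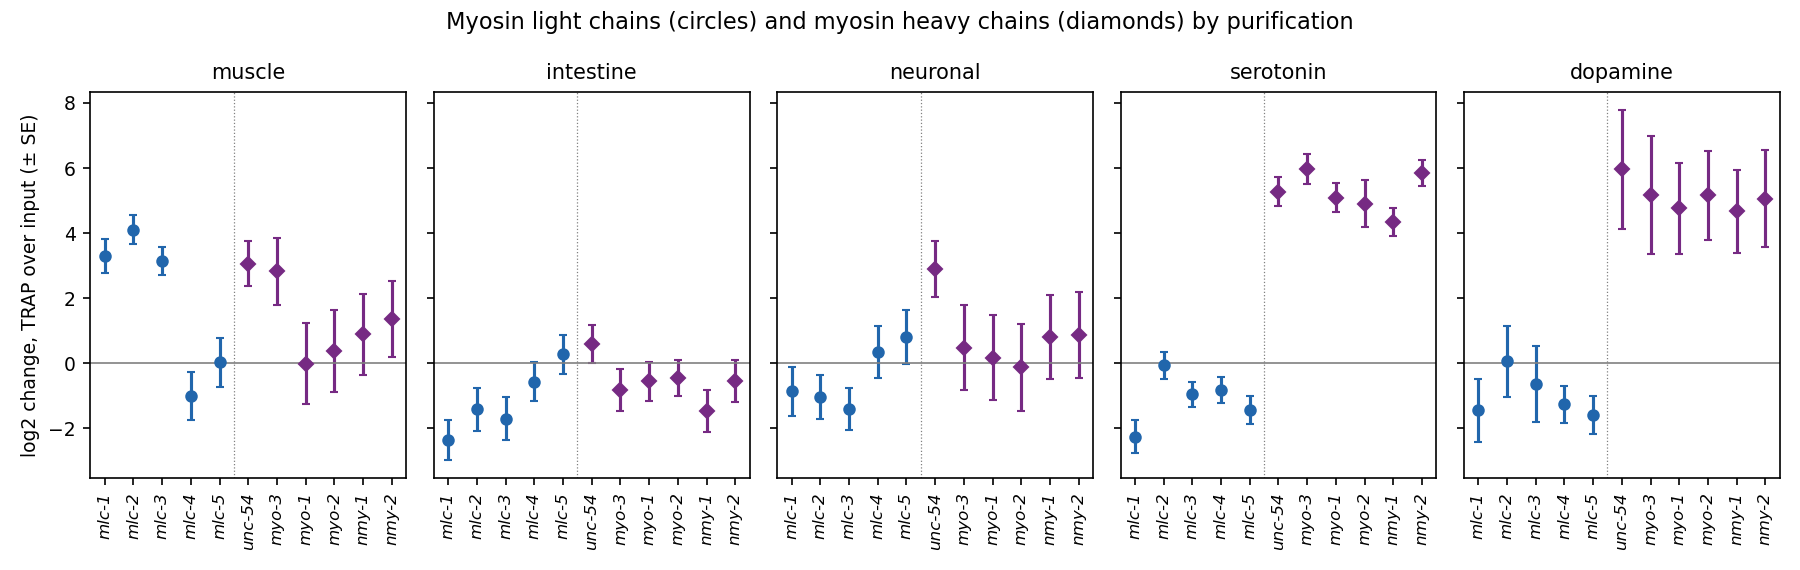
Log2 change of TRAP over input (± SE, n = 2 and 2) for the 5 light chains (circles) and the 6 myosin heavy chains (diamonds) in each purification. In serotonin and dopamine all heavy chains stand between 4.34 and 5.97 and all light chains at or below 0.06, while in muscle mlc-1, mlc-2, mlc-3 and unc-54 stand together between 3.06 and 4.11.

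Other genes of the sarcomere, the contractile unit of muscle, stood with the muscle light chains in the muscle purification. Of 16 tested sarcomere genes, 12 were called higher and 0 lower, where 1.1% of all genes were called higher, with a median of 3.27 against -0.56 over all genes tested. After rescaling 5 were called and in edgeR 2, where 2.87% and 2.85% of all genes were. The smallest p-values belonged to pat-10, a troponin C, at 3.19 ± 0.37, unc-27, a troponin I, at 3.78 ± 0.49, mup-2, a troponin T, at 3.93 ± 0.53, and lev-11, tropomyosin, at 3.50 ± 0.48 (limma adjusted p = 4.83e-10 or lower). In the intestine purification 0 of 16 sarcomere genes were called higher and 2 lower, where 5.34% of all genes were called lower. The 2 were unc-22, which encodes the giant protein twitchin, and act-4, an actin. The list median there was -1.37, against -0.74 over all genes tested. Rescaling and edgeR called 0 sarcomere genes and 0% of all genes there. The block called 11 lower, where 20.9% of all genes were. In the neuronal purification 1 of 16 was called lower, pat-10, where 0.588% of all genes were. The list median was -0.55, against 0.81 over all genes tested. After rescaling and in edgeR 0 were called, where 79 and 0 of the 13435 genes tested were called lower. In serotonin and dopamine limma called 0 sarcomere genes and 0% of all genes. With the block 3 were higher and 1 lower in serotonin, where 9.77% and 29% of all genes were. In dopamine 4 were higher with the block, where 8.44% of all genes were.

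Of the unconventional myosins, motors outside the class that these light chains serve, with 6 to 8 tested in each purification, 0 were called in limma without the block. With the block 4 of 8 were called higher in serotonin and 3 of 8 in dopamine, where 9.77% and 8.44% of all genes were. After rescaling and in edgeR 1 of 6 was called higher in muscle, where 2.87% and 2.85% were. DESeq2 called 2 of 6 in muscle, 5 of 8 in serotonin and 4 of 8 in dopamine higher, where 8.82%, 8.79% and 8.68% were. In intestine it called 1 of 8, and 667 of the 14051 genes tested, higher.

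Calmodulin and other EF-hand relatives of the light chains were called higher in neurons in limma. Of 8 tested, 5 were called higher and 0 lower in the neuronal purification, where 16.8% of all genes were called higher, with a median of 3.55 against 0.81 over all genes. After rescaling 3 were called and in edgeR 0, where 10.3% and 0% of all genes were called higher. The calmodulin-like gene cal-4 stood at 226 and 179 RPKM in neuronal TRAP and at 3.41 and 0.735 RPKM in input, a change of 6.19 ± 1.15 (limma adjusted p = 7.9e-06). The others with the smallest p-values were ncs-2 at 3.93, cal-2 at 4.71 and ncs-1 at 5.12, where ncs-1 and ncs-2 encode neuronal calcium sensors. In muscle 0 of 7 were called, with a median of 1.39 against -0.56 over all genes. There 3 were called higher with the block, 3 after rescaling, 3 in edgeR and 4 in DESeq2. Of all genes 3.26%, 2.87%, 2.85% and 8.82% were called higher in that order. In the intestine 0 of 8 were called higher and 2 lower, cal-3 and cal-2, where 0.406% and 5.34% of all genes were. After rescaling, in edgeR and in DESeq2 0 were called, where 0%, 0% and 1.94% of all genes were called lower.

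Over the 20 libraries, log2(RPKM + 1) of mlc-1 and mlc-3 had a Pearson r of 0.93, as had mlc-2 and mlc-3, while mlc-1 and mlc-2 had 0.82 and mlc-4 and mlc-5 had 0.42. Without the 4 muscle libraries these were 0.91, 0.84, 0.67 and 0.39. Paired TRAP and input libraries deviated together, and the libraries of a purification share a strain, so these values are descriptions. Among 9886 genes listed in all libraries, those most like mlc-1 were C18B2.3, unc-98, ZK809.8 and Y55D5A.4 (r = 0.94 to 0.95). Those most like mlc-2 were T25F10.6, unc-87, unc-27 and mlc-3 (0.93 to 0.94), and those most like mlc-3 were R13H4.2, unc-98, C18B2.3 and cpn-3 (0.94 to 0.95). For mlc-4 the nearest were lbp-9, asb-1, F44E2.8 and C36A4.4 (0.79 to 0.82). For mlc-5 they were uev-1, glrx-22, glrx-5 and dnj-21 (0.93 to 0.97). Of these genes, mlc-3 was the sole member named beside another member.

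The authors' deposited table of genes enriched in the muscle purification holds 577 genes. It gives an average enrichment of 28.1 for mlc-2, 13.6 for mlc-1 and 12.4 for mlc-3. Each average exceeded both replicate ratios of RPKM. Those were 12.7 and 23.4 for mlc-2, 11.9 and 8.27 for mlc-1, and 9.11 and 8.47 for mlc-3. The averages match ratios of the deposited count columns, scaled in some libraries, and are another measure than the RPKM ratios given here. The genes mlc-4 and mlc-5 were in none of the authors' deposited tables of enriched genes for the 5 purifications, and mlc-1, mlc-2 and mlc-3 were in that of muscle only.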

How the data were processed

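Reads were aligned and counted with STAR and HTSeq, per the submitters' processing notes, and their versions and the genome build are not given in the sources used here. The deposited tables leave out, in each replicate, genes below 1 RPKM in both TRAP and input, and the RPKM was made by the authors per gene length and library size. The deposited count columns hold reads plus 1 in 10 libraries, and in the other 10 the deposited values are a signal, the same number times a factor of 1.13 to 27.4, rounded. Dividing by the factor gave whole reads for 100% of values within rounding. The deposited enrichment ratio is TRAP over input, and the authors' lists average it. For the muscle light chains in muscle, that ratio matches the count columns as deposited and not the RPKM.

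Genes that both replicates list, if their mean RPKM reached 1, were tested on log2(RPKM + 1), which understates changes of low genes, with limma 3.58.1 in R 4.3.3, each purification alone and each difference over its 8 libraries, with trended variance and Benjamini-Hochberg adjustment at 0.05. In muscle and neurons the fitted spread depended on level alone. With the replicate block this held in every comparison but serotonin against input. Where it held, the p-values did not rest on each gene's own spread. The test was run on simulated data first. Alternatives were a replicate block, pseudocount 0.1, no minimum, relative log expression scaling, edgeR 4.0.16, DESeq2 1.42.0, mlc-1 and mlc-2 summed, all 20 libraries, and leaving out each library. The headers pair TRAP and input by replicate, and paired libraries deviated together (correlations 0.608, 0.603, 0.451, 0.679 and 0.516 in muscle, intestine, neurons, serotonin and dopamine). The genes named were the members, all myosin heavy chains, up to 4 genes of smallest p in each related list (1 list is not reported here), and the 4 genes most like each member. Genes named outside that rule, namely the markers cat-2, tph-1, bas-1 and cat-4, were picked to check the labels. The members and lists were chosen with earlier results of these data known.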

Additional observations from a re-analysis of the deposited data

Results flagged for a closer look

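The change of the muscle light chains differed between purifications in a test of the difference itself (limma on 8 libraries, adjusted p below 0.05). The muscle change exceeded the intestine change by 5.67 for mlc-1, 5.52 for mlc-2 and 4.84 for mlc-3 on the log2 scale. It exceeded the neuronal change by 5.14 for mlc-2 and 4.54 for mlc-3. It exceeded the serotonin change by 5.57 for mlc-1, 4.18 for mlc-2 and 4.09 for mlc-3, and the dopamine change by 4.76 for mlc-1.

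In other pairs of purifications, both replicates of one moved up and both of the other moved down, and these differences were not tested. For mlc-2 the intestine change was -1.48 against that in dopamine and the neuronal change -1.10 against it, where the dopamine replicates were barely above 0, at 0.10 and 0.03. For mlc-4 the neuronal change was 1.18 above that in serotonin and 1.61 above that in dopamine. For mlc-5 the intestine change was 1.72 above that in serotonin and 1.87 above that in dopamine. The neuronal change of mlc-5 was 2.25 above that in serotonin and 2.40 above that in dopamine. With 2 replicates in each purification, opposite signs of this kind can arise by chance. No allowance was made for the median over all genes tested, 0.81 in neurons, -0.74 in intestine, -0.44 in serotonin and -0.60 in dopamine. Relative to that median mlc-4 stood at -0.46 in neurons, -0.38 in serotonin and -0.67 in dopamine, so its signs were the same. By that measure mlc-5 was negative in neurons (-0.01), serotonin and dopamine (-0.99), and positive in intestine (1.01). For mlc-2 the signs stayed opposite, at -0.68 in intestine, -1.85 in neurons and 0.66 in dopamine.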

How the results depend on the processing

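Of the 5 members, those called changed as follows. With the replicate block 3 were called in intestine, 2 in serotonin, 1 in dopamine, 3 in muscle minus neuronal and 2 in muscle minus dopamine, and the numbers in the other comparisons did not change. After relative log expression rescaling and in edgeR, 0 were called in muscle, intestine, muscle minus neuronal and muscle minus dopamine, and 1 in muscle minus serotonin. In muscle minus intestine rescaling called 2 and edgeR 1. DESeq2 called 0 in intestine, 3 in neurons, 1 in serotonin, 3 in muscle minus neuronal and 3 in muscle minus dopamine. In muscle minus dopamine, pseudocount 0.1 gave 0, where 91 of 10088 genes were called higher. The fit of all 20 libraries gave 3 in muscle minus dopamine, where 246 of 9896 genes were called higher. It also gave 3 in muscle minus neuronal, where 65 of 9896 genes were. Leaving out 1 library gave 0 to 2 in intestine, 0 to 3 in muscle minus neuronal and 0 to 3 in muscle minus dopamine. Signs turned under rescaling, edgeR and DESeq2, in that order, for mlc-4 in intestine (0.27, 0.25, 0.24) and neurons (-0.86, -1.06, -1.23), mlc-5 in neurons (-0.40, -0.51, -0.68) and mlc-2 in serotonin (0.33, 0.38, 0.36). They also turned for muscle minus neuronal of mlc-4 (0.15, 0.41, 0.37) and mlc-5 (0.73, 0.88, 0.85). For neuronal minus intestine they turned for mlc-1 (-0.43, -0.21, -0.39), mlc-2 (-1.55, -1.80, -1.97), mlc-3 (-1.63, -1.64, -1.80), mlc-4 (-1.01, -1.22, -1.37) and mlc-5 (-1.40, -1.52, -1.70). In dopamine, mlc-3 turned to 0.022 in edgeR and 0.038 in DESeq2, and mlc-2 summed with mlc-1 to -0.40. Leaving out 1 library turned mlc-5 in muscle (-0.36 to 0.43), mlc-4 (-1.16 to 0.034) and mlc-5 (-0.30 to 0.85) in intestine, and mlc-2 in serotonin (-0.41 to 0.27) and dopamine (-0.33 to 0.46). It turned muscle minus intestine of mlc-4 (-1.04 to 0.16) and mlc-5 (-0.82 to 0.33), and mlc-4 in muscle minus serotonin (-0.65 to 0.30) and minus dopamine (-0.21 to 0.73). It turned neuronal minus intestine of mlc-2 (-0.19 to 0.95), mlc-3 (-0.24 to 0.84) and mlc-5 (-0.043 to 1.10). The cause of these shifts was not tested. Over all genes, limma without and with the block called 206 and 757 genes in the muscle libraries, 807 and 3252 for intestine, 0 and 5661 for serotonin, and 0 and 5602 for dopamine. Rescaling called 0 in intestine, and it moved the muscle split from 111 higher and 95 lower to 288 and 15. edgeR called 0 in intestine and neurons, where limma called 2336. DESeq2 called 1103 in muscle, 2197 in serotonin and 2048 in dopamine. For differences, limma without the block, with it, and DESeq2 called 456, 1123 and 1322 for muscle minus intestine, 7, 483 and 658 minus neuronal, 259, 1812 and 1355 minus serotonin, and 156, 1504 and 1383 minus dopamine.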
